A study of Mus musculus with 12 samples.

Results

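The mouse genes named Zfp200 to Zfp799 were followed through RNA sequencing of the ischemic hemisphere after cerebral ischemia and reperfusion (I/R). Members were chosen by their measured values: a protein-coding gene with such a name was kept when its raw count reached 10 in at least 4 of the 12 mice. The rule kept 189 of the 201 protein-coding genes with these names, and all 189 entered the test of 17558 genes. Of the 12 genes left out, 4 had no count in any mouse. Just outside the rule, the fourth highest count was 7 for Zfp750, 8 for Zfp541 and 9 for Zfp781, and just inside it was 11 for Zfp433, 14 for Zfp473 and 16 for Zfp474. Counts reached 10 in all 12 mice for 181 members, and no member passed through the mice of 1 group alone.

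The 12 mice were C57BL/6J by the labels and males aged 9 to 10 weeks by the study's methods, with 4 in each group. Sham mice had sham surgery, Vehicle mice had transient middle cerebral artery occlusion (tMCAO, 45 min by the study's methods) with saline, and LJP mice had tMCAO with Laminaria japonica polysaccharide, a seaweed polysaccharide given daily over 14 days before surgery and again after it by those methods. The hemisphere was sequenced whole, so that fewer cells of a type and less RNA per cell cannot be told apart. Every library carries the same batch label, and the account of the sequencing states neither dose nor time after reperfusion, although the study chose its middle dose for the experiments that followed dose finding.

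Most proteins of this family carry C2H2 zinc fingers, small folds in which a pair of cysteines and a pair of histidines hold a zinc ion. Fingers repeated in tandem read DNA bases in succession, and a short conserved linker joins each finger to the next. Many of these proteins also start with a Krüppel-associated box (KRAB), which recruits the corepressor TRIM28 and through it the histone methyltransferase SETDB1 and heterochromatin proteins, and KRAB zinc finger proteins are best known for silencing transposable elements. KRAB genes arose by tandem duplication and stand in clusters on the chromosomes, whereas members without the box include older regulators of brain development, chromatin proteins and RNA-binding proteins.

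The coding sequence of a finger from 4 members is shown because the finger is what the family has in common. Each run holds 78 coding bases of the GENCODE M21 transcript, from the first cysteine of the finger through the linker to the next, and the capitals mark the linker codons.
Zfp287 (KRAB, coding bases 1186 to 1263 of ENSMUST00000149228.7): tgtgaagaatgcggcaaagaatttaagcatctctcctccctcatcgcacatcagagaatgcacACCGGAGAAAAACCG
Zfp583 (KRAB, coding bases 637 to 714 of ENSMUST00000062765.13): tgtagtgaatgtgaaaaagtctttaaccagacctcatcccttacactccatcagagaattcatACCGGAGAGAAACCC
Zfp445 (KRAB, coding bases 1906 to 1983 of ENSMUST00000216063.1): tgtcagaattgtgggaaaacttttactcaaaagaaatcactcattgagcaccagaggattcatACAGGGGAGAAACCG
Zfp217 (no KRAB box, coding bases 1438 to 1515 of ENSMUST00000063710.12): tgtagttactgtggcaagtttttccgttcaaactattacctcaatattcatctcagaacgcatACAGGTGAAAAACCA
The Zfp583 protein held 11 finger units of exactly this form and Zfp287 held 8, whereas Zfp445 and Zfp217 held 1 each. A match to the KRAB box was found in 77 members, an intermediate match in 7 and none in 103, and 2 members (Zfp469 and Zfp660) were not translated. The 77 KRAB members had a median of 13 fingers (range 2 to 33) and the 103 members with no KRAB box a median of 8 (range 0 to 34). These fingers were counted with or without the linker, and none was found by the pattern in Zfp365, Zfp503, Zfp474, Zfp703 and Zfp330.

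Promoters of 3 members are shown, that of Zfp217, which had the smallest p of the members that rose after I/R, and those of Zfp287 and Zfp605, which had the smallest p of the KRAB members that fell. RefSeq promoters (GRCm38.p6), from 250 bases before to 50 bases after the start of the gene, were at hand for 149 of the 189 members, with 179 windows. The capitals mark a GC box (GGGCGG), the element read by Sp1-type factors, or the core of an ETS site (CCGGAAG), each searched on both strands, with matches of the 2 motifs allowed to share bases.
Zfp217 (chr2:170142626-170142925, minus strand, 1 of its 2 windows): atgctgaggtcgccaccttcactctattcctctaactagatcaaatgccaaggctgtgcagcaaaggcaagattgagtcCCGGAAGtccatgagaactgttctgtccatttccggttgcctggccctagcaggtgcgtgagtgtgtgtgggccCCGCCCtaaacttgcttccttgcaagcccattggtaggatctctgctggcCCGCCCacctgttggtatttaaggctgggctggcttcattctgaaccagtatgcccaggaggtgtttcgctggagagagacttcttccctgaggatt
Zfp605 (chr5:110109842-110110141, plus strand): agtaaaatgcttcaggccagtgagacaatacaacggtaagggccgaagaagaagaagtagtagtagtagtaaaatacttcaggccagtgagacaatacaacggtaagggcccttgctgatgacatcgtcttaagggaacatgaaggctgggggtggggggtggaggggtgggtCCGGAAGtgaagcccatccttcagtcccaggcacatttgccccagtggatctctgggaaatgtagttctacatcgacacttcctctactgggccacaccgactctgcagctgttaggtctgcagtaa
Zfp287 (chr11:62731847-62732146, minus strand): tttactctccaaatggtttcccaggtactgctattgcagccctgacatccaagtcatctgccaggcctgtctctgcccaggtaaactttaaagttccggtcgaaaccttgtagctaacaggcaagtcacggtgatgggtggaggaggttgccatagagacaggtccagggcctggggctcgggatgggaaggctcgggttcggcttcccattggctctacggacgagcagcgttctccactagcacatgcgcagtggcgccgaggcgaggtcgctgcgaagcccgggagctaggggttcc
The Zfp217 window shown held 2 GC boxes, 1 ETS core and 7 CpG dinucleotides, whereas its other window held 3 GC boxes, no ETS core and 49 CpG dinucleotides. The Zfp605 window held 1 ETS core, and the letters searched were not in the Zfp287 window. A GC box stood in 53.1% of the members' windows and in 35.7% of all 32851 windows of the same length. The ETS core stood in 20.1% of the members' windows and in 8.86% of all windows. Members with no KRAB box had a GC box in 61.2% of 98 windows and KRAB members in 44.0% of 75 windows, while the ETS core was in 16.3% and 22.7%. The NRF1 core GCATGCGC was in 7.26% of the members' windows against 2.71% of all, the CRE TGACGTCA in 5.03% against 1.79%, and the AP-1 site TGANTCA in 5.03% against 7.81%. The median number of CpG dinucleotides was 18 in the members' windows and 7 in all windows. Members had passed the count rule, and windows of other genes that pass it were not compared as a set. Whether these shares are particular to zinc finger genes was therefore not tested.

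Levels are given as CPM (counts relative to the library size after TMM scaling), and levels of different genes are compared only per kb of transcript. The members' mean level over the 12 mice had a median of 15.6 CPM. Per kb, the median was 1.33 CPM for KRAB members and 5.01 CPM for members with no KRAB box. Zfp365, which binds the scaffold protein DISC1, stood highest with 119 CPM per kb. The next were Zfp706 (35.3 CPM per kb), Zfp523 (32.3), Zfp622, a ribosome assembly factor (29.0), and Zfp703, a corepressor of the NET family (26.7).

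Total counts per mouse ranged from 17960353 to 22216315, which puts a floor of 3 counts at 0.129 to 0.173 CPM and covers counting error only. Neuron, astrocyte and oligodendrocyte markers were present in every mouse. By neuron, endothelial and neutrophil markers, Vehicle mice 1 and 2 stood apart from Vehicle mice 3 and 4. The summed level of 8 neuron markers was 5018 and 3997 CPM in Vehicle mice 1 and 2, 6115 and 5917 CPM in Vehicle mice 3 and 4, and 6189 to 6868 CPM in Sham mice. The summed level of 6 endothelial markers was 651 and 1367 CPM in Vehicle mice 1 and 2, 271 and 333 CPM in Vehicle mice 3 and 4, and 178 to 243 CPM in LJP mice. Neutrophil markers summed to 164 and 61.7 CPM in Vehicle mice 1 and 2 and to at most 9.91 CPM elsewhere, and 4 airway and lung markers summed to 8.35 to 13.2 CPM in Sham and Vehicle mice but to 0.358 to 0.669 CPM in LJP mice. Other markers moved in all Vehicle mice: 6 microglia and macrophage markers summed to 109 to 113 CPM in Sham, 285 to 365 CPM in Vehicle and 191 to 363 CPM in LJP mice. In the same order, 6 lymphocyte markers summed to 19.4 to 25.4, 3.74 to 5.81 and 6.91 to 12.5 CPM. Only 1 of these 6 passed the filter, with a mean of 11.5 CPM over the 12 mice. It makes up nearly the whole sum, so the fall is that of a single gene. Choroid plexus markers varied within every group, from 20.5 to 865 CPM in Sham, 11.2 to 501 CPM in Vehicle and 11.4 to 364 CPM in LJP mice. The part of these cell types in the results on zinc finger genes was not tested, and values without Vehicle mice 1 and 2 are given beside most counts and medians.

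Vehicle mice were first compared with Sham mice, which addresses what I/R does to these genes. Of the 77 KRAB members 24 fell, 2 rose and 51 did not pass the test, and with Vehicle mice 3 and 4 only 11 (14.3%) fell, beside 14.4% of all genes. In members with no KRAB box, 26 of 103 fell and 9 rose, with Zfp365 and Zfp503 among those that fell and Zfp217, Zfp703 and Zfp219 among those that rose. Single mice moved these counts. Without Sham mouse 1, 13 KRAB members (16.9%) and 14 with no KRAB box (13.6%) fell, beside 11.5% of all genes. Without Sham mouse 3, 13 (16.9%) and 16 (15.5%) fell, beside 12.6%. Over the 189 members, 51 (27.0%) fell and 11 (5.82%) rose at an adjusted p below 0.05 in edgeR's quasi-likelihood test. Over all 17558 genes tested, 17.3% fell and 22.7% rose. The members' median log2 fold change was -0.18, with 126 below 0 and 63 above 0, and the median over all genes was 0.00. All 4 Vehicle values lay below all 4 Sham values in 45 members and above them in 13, beside 18.8% and 20.7% of all genes. With library sizes taken as they are, without TMM, 30 members fell and 23 rose, beside 13.1% and 27.0% of all genes, while the median of all genes moved to 0.08 and that of the members to -0.10. With Vehicle mice 3 and 4 only, 26 members (13.8%) fell and 5 (2.65%) rose, beside 14.4% and 16.1% of all genes, so that the share of members that fell was no longer above that of all genes. The median was then -0.10. KRAB members are low, with a median of 7.01 CPM beside 17.9 CPM for all genes. With all 4 Vehicle mice, 8.98% of 3309 other protein-coding genes at the level of KRAB members (median 8.2 CPM) fell and 33.97% rose. The shares of KRAB members were 31.2% and 2.597%. The median log2 fold change was 0.19 for the 3309 genes and -0.33 for KRAB members. These genes were not counted with Vehicle mice 3 and 4 only, and the difference was not tested. At the study's thresholds, a log2 fold change beyond 0.58 in size and an unadjusted p under 0.01, 11 members were lower and 3 higher, beside 6.39% and 15.3% of all genes, and at an unadjusted p below 0.05 alone 63 were lower and 21 higher, beside 22.8% and 27.1% of all genes. Of the 28 calls among the genes with the smallest p and the lists, 20 stayed past the threshold with Vehicle mice 3 and 4 only, while Zfp687, Zfp410, Zfp276, Zfp777, Zfp384, Zfp568, Zfp711 and Zfp532 did not (adjusted p of 0.0617 to 0.516). All 28 kept their sign, which adds no support. The genes were called on these same mice, and most did not overlap between Vehicle and Sham, so their sign could hardly turn.

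The size of the difference varied between Vehicle mice. The median log2 difference of the 77 KRAB members from the mean of the Sham mice was -0.46 in Vehicle mouse 1, -0.51 in mouse 2, -0.12 in mouse 3 and -0.15 in mouse 4. In the same order, the values for the 103 members with no KRAB box were -0.10, -0.03, -0.03 and -0.07. In LJP mice the KRAB median lay between -0.08 and -0.02, and in Sham mice between -0.05 and 0.09. Vehicle mice 1 and 2, which had the lowest neuron markers and the highest endothelial markers, were thus also the lowest for KRAB members, and Vehicle mice 3 and 4 lay nearer to the LJP mice than to Vehicle mice 1 and 2. The summed level of the KRAB members told the same by mouse, with 795, 735, 902 and 891 CPM in the 4 Vehicle mice against 986 to 1063 CPM in Sham mice and 946 to 995 CPM in LJP mice, so that the Vehicle group overlapped with neither.

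**Figure D1:**
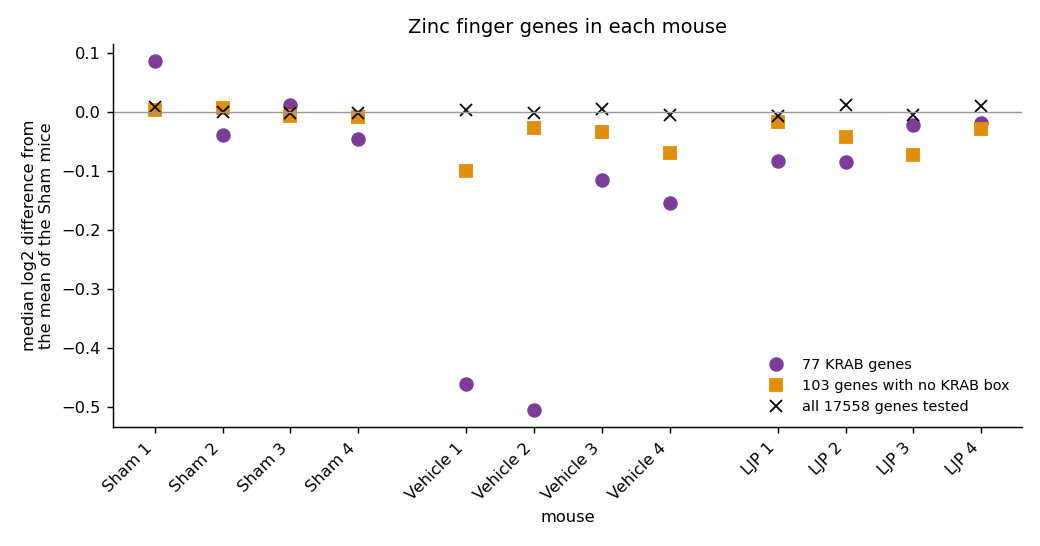
Median log2 difference from the mean of the Sham mice (vertical axis) in each of the 12 mice (horizontal axis), for 77 KRAB members, 103 members with no KRAB box and all 17558 genes tested. KRAB members lie at -0.46 and -0.51 in Vehicle mice 1 and 2 and between -0.15 and 0.09 in the other 10 mice, while the median of all genes stays near 0 in each mouse.

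For KRAB members the median log2 fold change between Vehicle and Sham was -0.33, and 64 of 77 lay below 0. It was -0.26 without TMM, when the median of all genes was 0.08, and -0.16 with Vehicle mice 3 and 4 only, when none of the KRAB members rose, beside 16.1% of all genes. Among the 58 KRAB members with no overlapping gene and at most 10% of their 100-base stretches shared with other genes, 20 (34.5%) fell and 2 (3.45%) rose, beside 17.3% and 22.7% of all genes, with a median of -0.35. Without Vehicle mice 1 and 2, 9 of the 58 (15.5%) fell, beside 14.4% of all genes, none rose and the median was -0.17. For members with no KRAB box the median was -0.05 and turned to 0.03 without TMM, with 15 falling and 19 rising there. It was -0.06 with Vehicle mice 3 and 4 only, when 15 (14.6%) fell and 5 (4.85%) rose. The difference between the classes is a description and was not tested.

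**Figure D2:**
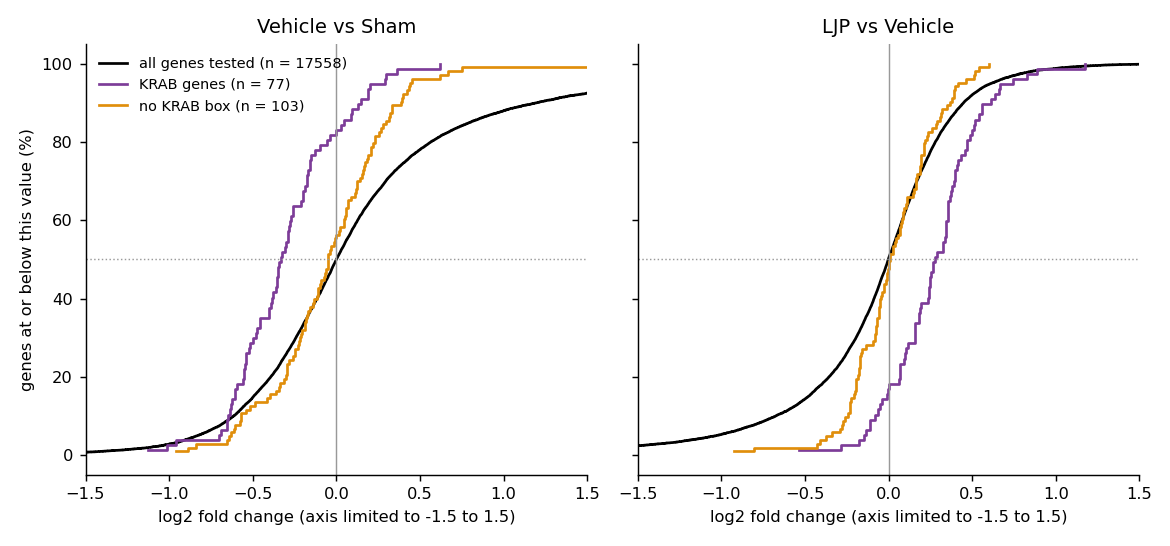
Share of genes (vertical axis, percent) at or below each log2 fold change (horizontal axis) for all genes tested, KRAB members and members with no KRAB box, in Vehicle against Sham (left) and LJP against Vehicle (right). The KRAB curve crosses 50% at -0.33 on the left and at 0.28 on the right, and the curve of members with no KRAB box at -0.05 and 0.01.

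Among KRAB members, Zfp287 gave the smallest p of those that fell. Its level was 16.6, 17.3, 14.3 and 15.8 CPM in the Sham mice, 10.6, 11.5, 10.8 and 11.0 CPM in the Vehicle mice and 14.6, 16.1, 15.3 and 15.7 CPM in the LJP mice. Every Vehicle mouse lay below every other mouse, and the Vehicle values were close to each other. The log2 fold change was -0.54 ± 0.09 (SE, n = 4 per group, adjusted p = 0.00109 in edgeR's test), and the exact permutation test gave p = 0.0286, the smallest that 4 mice against 4 allow. The exact p only restates the lack of overlap, in a gene chosen for its small p. Zfp605 followed with 14.01, 12.4, 12.2 and 12.2 CPM in Sham mice and 9.53, 7.99, 8.50 and 8.46 CPM in Vehicle mice, again without overlap (log2 fold change -0.56 ± 0.11, adjusted p = 0.00224). Zfp799 was lower as well, at 22.7, 20.98, 19.5 and 20.0 CPM in Sham mice and 11.1, 10.4, 17.9 and 13.8 CPM in Vehicle mice (log2 fold change -0.65 ± 0.15, adjusted p = 0.00615), with Vehicle mouse 3 nearest to the Sham range. Zfp445, which maintains imprinted marks together with Zfp57, stood at 111, 96.8, 98.3 and 92.7 CPM in Sham mice and at 63.6, 69.5, 84.9 and 87.7 CPM in Vehicle mice. The groups did not overlap, and the log2 fold change was -0.38 ± 0.10 (adjusted p = 0.0118). Zfp445 overlaps Zkscan7 on the other strand.

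The KRAB members that rose were Zfp777 and Zfp568. Zfp568 is known for silencing a placental transcript of Igf2 in the embryo. Its level was 3.75, 4.47, 3.73 and 4.30 CPM in Sham mice and 5.35, 9.84, 5.38 and 4.36 CPM in Vehicle mice, with Vehicle mouse 4 within the Sham range (log2 fold change 0.62 ± 0.23, adjusted p = 0.0457). Vehicle mouse 2 was far above the other Vehicle mice, and without it the log2 fold change was 0.30 (adjusted p = 0.153). The call was also lost without any of the Sham or LJP mice, with adjusted p of 0.0554 to 0.104. Zfp777 stood at 44.6, 41.2, 43.6 and 47.0 CPM in Sham mice and at 66.8, 64.7, 47.0 and 47.6 CPM in Vehicle mice, with Vehicle mice 3 and 4 close to the top of the Sham range (log2 fold change 0.36 ± 0.13, adjusted p = 0.0418). Its call was lost without Vehicle mouse 1 (adjusted p = 0.12), Vehicle mouse 2 (0.105), LJP mouse 3 (0.0551), LJP mouse 4 (0.056) or any Sham mouse (0.0589 to 0.104).

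Among members with no KRAB box, the largest rise was that of Zfp217, whose human counterpart is an oncogene product found in CoREST-type corepressor complexes. It stood at 4.498, 5.29, 4.38 and 4.30 CPM in the Sham mice, 15.4, 19.7, 10.7 and 10.6 CPM in the Vehicle mice and 9.72, 7.41, 9.57 and 5.57 CPM in the LJP mice. The 3 groups were in full separation, with Vehicle mice 1 and 2 highest. The log2 fold change between Vehicle and Sham was 1.61 ± 0.23 (3.06-fold, adjusted p = 0.000441), and it was at least 1.197 in all 19 alternatives, the lowest being that with Vehicle mice 3 and 4 only. Zfp703, a corepressor without C2H2 fingers of the usual form, was 68.2, 61.4, 74.6 and 71.8 CPM in Sham mice and 115, 128, 97.3 and 97.6 CPM in Vehicle mice (log2 fold change 0.66 ± 0.10, adjusted p = 0.000571). Zfp219, a cofactor of Sox9, was 51.7, 55.5, 54.3 and 57.3 CPM in Sham mice and 83.1, 74.7, 72.9 and 68.3 CPM in Vehicle mice (log2 fold change 0.45 ± 0.07, adjusted p = 0.000851). The groups did not overlap for either gene. Zfp219 overlaps Arhgef40 and Tmem253 on the other strand, and reads of such genes cannot be told apart from its own where counting ignores strand.

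The other members that rose with a smallest p were Zfp787, Zfp395, Zfp687, Zfp410, Zfp276 and Zfp384, by log2 fold changes of 0.27 to 0.62. None of the 6 overlapped between Vehicle and Sham mice. Zfp395, which binds the promoter of the huntingtin gene, stood at 11.6, 13.1, 10.5 and 14.04 CPM in Sham mice and at 16.7, 25.1, 16.5 and 17.1 CPM in Vehicle mice. Zfp410, known as a dedicated activator of the chromatin remodeler gene Chd4, stood at 15.7, 15.04, 14.9 and 14.98 CPM in Sham mice and at 19.4, 22.7, 17.3 and 16.9 CPM in Vehicle mice (log2 fold change 0.33 ± 0.11, adjusted p = 0.025). The calls of 3 of these genes rested on single libraries. Zfp410 was no longer called without Vehicle mouse 2 (adjusted p = 0.0664) or Sham mouse 2, 3 or 4 (0.057 to 0.0583). Zfp276 was no longer called without Vehicle mouse 2 (0.0847), Vehicle mouse 4 (0.0614) or Sham mouse 1, 2 or 3 (0.0523 to 0.0932). Zfp384 was no longer called without Vehicle mouse 2 (0.118), any Sham mouse (0.0677 to 0.117) or any LJP mouse (0.0542 to 0.0597).

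The member with the largest fall among those with no KRAB box was Zfp365. Its level was 714, 654, 666 and 663 CPM in the Sham mice, 297, 223, 435 and 436 CPM in the Vehicle mice and 537, 490, 465 and 495 CPM in the LJP mice. The LJP mice lay between the Sham and Vehicle mice without overlap with either. The log2 fold change between Vehicle and Sham was -0.96 ± 0.17 (adjusted p = 0.0016). Zfp644, which works with the histone methyltransferases G9a and GLP, gave the smallest p of all members that fell. It stood at 57.8, 55.4, 52.3 and 52.9 CPM in Sham mice, 32.8, 30.9, 39.2 and 40.4 CPM in Vehicle mice and 50.1, 48.5, 44.7 and 45.1 CPM in LJP mice (log2 fold change between Vehicle and Sham -0.61 ± 0.09, adjusted p = 0.00062). Zfp644 too had the 3 groups apart, in the order Vehicle, LJP, Sham. Zfp503 (Nolz1), a regulator of striatal development and a relative of Zfp703, stood at 24.2, 27.1, 25.04 and 24.1 CPM in Sham mice, 15.5, 11.1, 14.5 and 14.98 CPM in Vehicle mice and 22.1, 17.5, 12.1 and 13.5 CPM in LJP mice. Vehicle lay below Sham in every mouse (log2 fold change -0.84 ± 0.17, adjusted p = 0.00295), whereas the LJP values ran from the Vehicle range to near the lowest Sham mouse. Zfp503 overlaps the non-coding gene A330001L22Rik on the other strand.

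**Figure D3:**
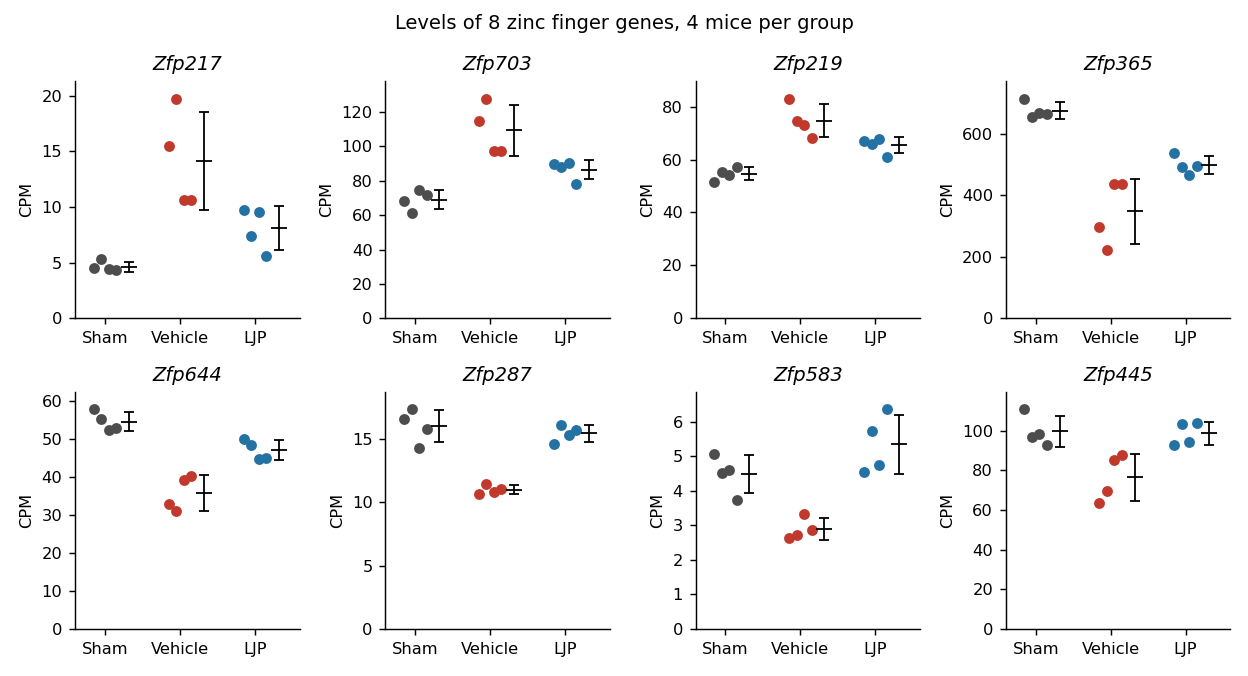
Levels in CPM (vertical axes, from 0) of 8 members in the 4 Sham, 4 Vehicle and 4 LJP mice, each point a mouse and each bar the mean with its SD. Zfp217, Zfp703 and Zfp219 are highest in Vehicle mice, and Zfp365, Zfp644, Zfp287, Zfp583 and Zfp445 are lowest in Vehicle mice, with no Vehicle mouse overlapping a Sham mouse in any panel.

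Further members with no KRAB box that fell were Zfp236, Zfp770, Zfp523 and Zfp292. Zfp236, which carries 31 fingers, stood at 63.4, 63.3, 58.4 and 61.8 CPM in Sham mice and at 44.6, 34.3, 49.2 and 44.5 CPM in Vehicle mice (log2 fold change -0.52 ± 0.09, adjusted p = 0.0017). Zfp523, a relative of the small nuclear RNA gene activator ZNF143, stood at 129, 135, 144 and 143 CPM in Sham mice and at 90.4, 68.1, 108 and 106 CPM in Vehicle mice (log2 fold change -0.57 ± 0.13, adjusted p = 0.00442). Zfp770 fell from 15.7 to 20.1 CPM in Sham mice to 9.97 to 13.5 CPM in Vehicle mice (log2 fold change -0.61 ± 0.13, adjusted p = 0.00357). Zfp292, whose human counterpart is linked to intellectual disability, stood at 39.8, 37.3, 41.1 and 35.7 CPM in Sham mice, 30.5, 28.9, 29.5 and 33.1 CPM in Vehicle mice and 32.3, 29.5, 31.3 and 31.1 CPM in LJP mice. Both tMCAO groups thus lay below the Sham mice for Zfp292 and overlapped with each other.

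The fold changes were also described by the number of fingers, which the choice of members did not use. The median log2 fold change between Vehicle and Sham was 0.04 for 30 members with 0 to 3 fingers, -0.07 for 21 members with 4 to 6, -0.08 for 38 members with 7 to 9, -0.27 for 41 members with 10 to 12 and -0.35 for 57 members with 13 or more. In the last range 21 members fell and none rose, beside the 17.3% and 22.7% of all genes. In the first range 8 members fell and 2 rose. The medians in the same order, with Vehicle mice 3 and 4 only, were -0.04, -0.04, -0.06, -0.12 and -0.16, with 9 members lower in the last range (15.8%) and 7 in the first (23.3%), beside 14.4% of all genes. KRAB members also carry more fingers, so that box and finger number are not independent descriptions.

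**Figure D4:**
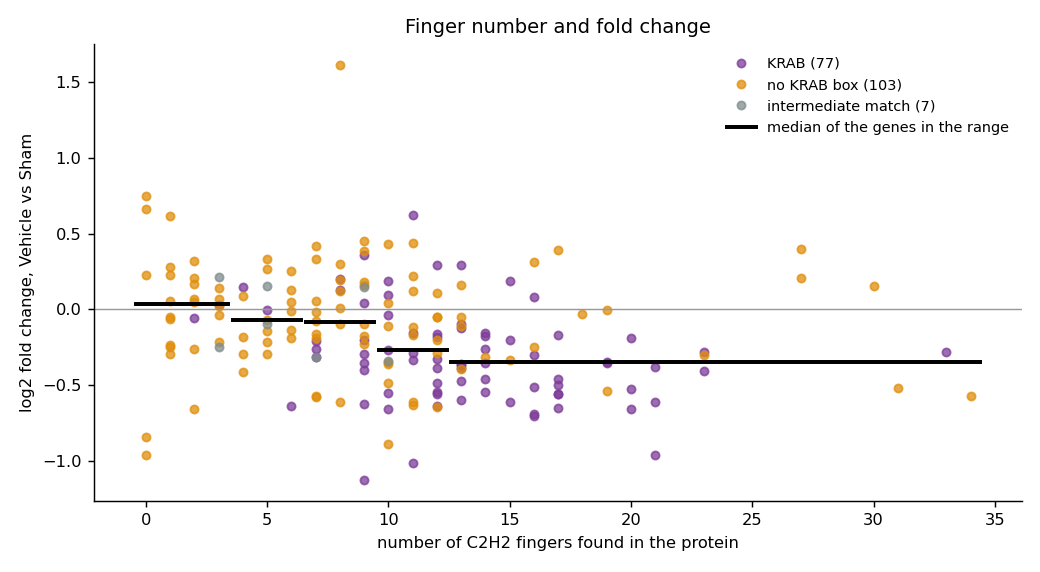
Log2 fold change between Vehicle and Sham (vertical axis) against the number of C2H2 fingers found in the protein (horizontal axis), each point a member and coloured by KRAB class, with the median of each range of finger numbers as a bar. The bars descend from 0.04 at 0 to 3 fingers to -0.35 at 13 or more, with single members from -1.12 to 1.61.

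Position was examined next, since 52 members stand on chromosome 7 and 17 on chromosome 13. In 26 runs of members less than 1 Mb apart stood 107 members. The largest run, chr13:67038594-67827000 (GRCm38), held 13 members from Zfp712 to Zfp273, and all 13 were KRAB genes. Their summed level was 44.8, 36.7, 41.6 and 37.1 CPM in the Sham mice, 21.7, 22.0, 36.5 and 32.8 CPM in the Vehicle mice and 38.6, 33.8, 37.2 and 41.6 CPM in the LJP mice. Vehicle mice 1 and 2 were far below all others, and Vehicle mouse 3 lay within the LJP range and just under the lowest Sham mouse. The median log2 fold change between Vehicle and Sham was -0.55, with 11 of 13 below 0, and Zfp458 (-0.96 ± 0.25, adjusted p = 0.0106) and Zfp738 (-0.52 ± 0.18, adjusted p = 0.0323) passed the test, which is 15.4% of the run beside 17.3% of all genes. Between LJP and Vehicle the median was 0.41 with 13 of 13 above 0, none of which passed. The medians of the run were -0.11 and 0.08 with Vehicle mice 3 and 4 only, when Zfp458 still passed (log2 fold change -0.72, adjusted p = 0.0132) and Zfp738 did not (-0.48, 0.0945). The members of this run are low, with a median of 1.76 CPM, and Zfp708 shares its whole transcript with other genes in stretches of 100 bases, so that its counts are uncertain.

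**Figure D5:**
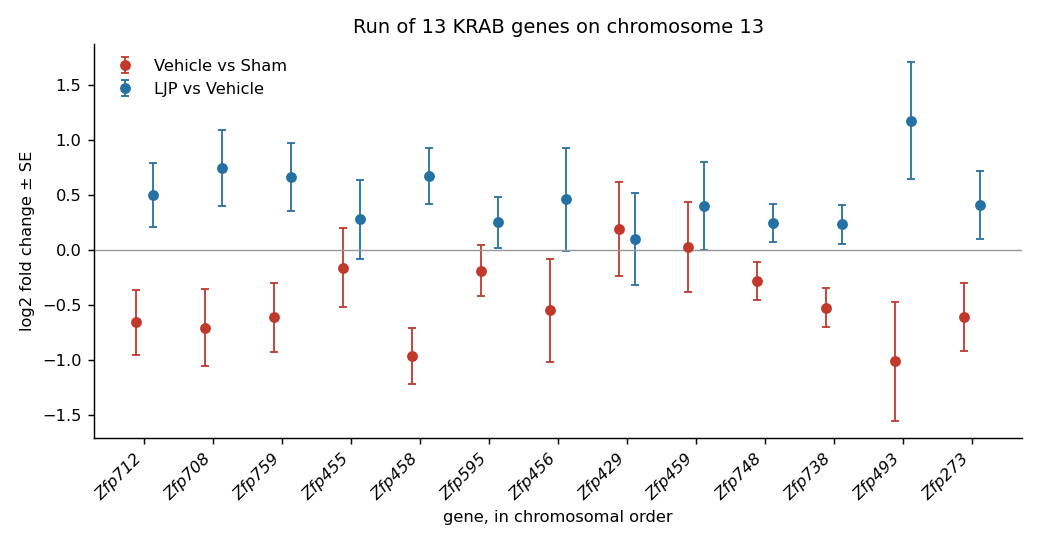
Log2 fold change with its SE (vertical axis) for the 13 KRAB genes of the run on chromosome 13, in chromosomal order (horizontal axis), for Vehicle against Sham and LJP against Vehicle. The points of Vehicle against Sham have a median of -0.55 and those of LJP against Vehicle a median of 0.41, and both comparisons use the same Vehicle mice.

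The other 8 runs with at least 5 members are given side by side, and no difference between runs was tested. Their counts are to be read beside the 17.3% of all genes that fell and the 22.7% that rose. The run of 5 members on chromosome 17 from Zfp799 to Zfp414, with 4 KRAB genes, stood at a median of -0.47 on the log2 scale in Vehicle against Sham mice, where 2 of its members fell, and at 0.44 in LJP against Vehicle mice. In the run of 10 members on chromosome 7 from Zfp553 to Zfp646, of which 4 are KRAB genes, the median log2 fold change between Vehicle and Sham was -0.03 and no member passed the test. The run of 7 members on chromosome 7 from Zfp790 to Zfp382, with 5 KRAB genes, had a median of -0.29, with 3 members lower and 1 higher. In the run of 7 from Zfp787 to Zfp772 on the same chromosome the median was -0.41, with 2 lower and 1 higher. The run of 5 members with no KRAB gene from Zfp628 to Zfp580 had a median of 0.05, and none of its members passed. The run of 5 from Zfp551 to Zfp446, with 3 KRAB genes, had a median of -0.35, with 2 lower. On chromosome 6 the 8 members from Zfp786 to Zfp775, with 5 KRAB genes, had a median of 0.05, with 2 lower and 1 higher, and on chromosome 7 the 5 from Zfp235 to Zfp526, with 1 KRAB gene, had a median of -0.11, with 1 lower. The medians of these 8 runs lay, with Vehicle mice 3 and 4 only, between -0.28 and 0.03, and 4 calls were then made in them, 1 lower each in the runs from Zfp799, Zfp790 and Zfp235 and 1 higher in that from Zfp787. In that fit 14.4% of all genes fell and 16.1% rose.

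Of 13 members known from neural development and neuronal function, 6 fell and 1 rose in Vehicle mice, beside 17.3% and 22.7% of all genes, with a median log2 fold change of -0.17. In the fit with Vehicle mice 3 and 4 only, 5 (38.5%) fell and 1 (7.69%) rose, beside 14.4% and 16.1% of all genes, and the median was -0.02. Zfp365, Zfp503, Zfp292, Zfp462, Zfp609 and Zfp711 fell and Zfp703 rose. Zfp462, which represses genes of other lineages and carries 34 fingers, stood at 69.95, 76.7, 67.5 and 61.9 CPM in Sham mice and at 43.6, 33.0, 57.2 and 52.4 CPM in Vehicle mice (log2 fold change -0.57 ± 0.15, adjusted p = 0.00917). Zfp609, which works with the cohesin loader Nipbl in neural progenitors, stood at 87.5, 80.0, 74.7 and 79.5 CPM in Sham mice and at 65.7, 59.9, 72.7 and 64.2 CPM in Vehicle mice (log2 fold change -0.29 ± 0.07, adjusted p = 0.00789). Zfp711, an X-linked gene tied to intellectual disability, overlapped between groups (log2 fold change -0.63 ± 0.22, adjusted p = 0.0349), and its call was lost without Vehicle mouse 1 (adjusted p = 0.0578), Vehicle mouse 2 (0.073) or Sham mouse 1, 3 or 4 (0.0668 to 0.112). The 6 others did not pass: Zfp423, a partner of Smad and Ebf factors (log2 fold change 0.40, adjusted p = 0.0507), Zfp488, an oligodendrocyte factor (0.32, 0.224), Zfp746, the parkin substrate PARIS (0.21, 0.0968), Zfp521 (0.21, 0.281), Zfp335 (0.16, 0.101) and Zfp536 (-0.17, 0.49). In the 4 Vehicle mice Zfp423 stood at 29.2, 39.8, 21.7 and 27.9 CPM, against 20.8 to 24.9 CPM in Sham mice.

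Of 16 members linked to chromatin, imprinting or corepressors, 5 rose (Zfp217, Zfp219, Zfp687, Zfp410 and Zfp568) and 5 fell (Zfp644, Zfp462, Zfp445, Zfp532 and Zfp609), beside 22.7% and 17.3% of all genes, and the median log2 fold change was 0.09. Leaving out Vehicle mice 1 and 2, 2 rose and 4 fell, beside 16.1% and 14.4% of all genes, and the median was 0.04. Zfp532 and Zfp687 are known as partners in a complex with ZMYND8, and they moved in opposite directions. Zfp687 stood at 52.9, 52.5, 50.7 and 49.8 CPM in Sham mice and at 79.2, 74.4, 55.3 and 59.7 CPM in Vehicle mice (log2 fold change 0.39 ± 0.11, adjusted p = 0.0139), and it overlaps Pi4kb on the other strand. Zfp532 stood at 68.1, 62.8, 65.4 and 65.6 CPM in Sham mice and at 50.2, 39.1, 59.2 and 57.9 CPM in Vehicle mice (log2 fold change -0.34 ± 0.11, adjusted p = 0.0261). Its call was lost without Vehicle mouse 1 (adjusted p = 0.0545) or Sham mouse 1, 3 or 4 (0.0531 to 0.0725). Zfp592, the third member of that complex, did not pass (log2 fold change 0.12, adjusted p = 0.23). Nor did Zfp281 (0.14, 0.156), Zfp451 (-0.17, 0.143), Zfp516 (0.04, 0.753), Zfp652 (0.06, 0.735) and Zfp746.

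Of 11 members with roles in RNA binding, splicing, the spindle, the nucleolus or ribosome control, 2 (18.2%) fell and none rose, beside 17.3% and 22.7% of all genes, with a median log2 fold change of 0.05. These counts were also 2 and 0 with Vehicle mice 3 and 4 only, beside 14.4% and 16.1% of all genes, and the median turned to -0.08. Zfp318, which controls the joint transcript of the IgM and IgD heavy chains in B cells, stood at 55.2, 54.3, 53.2 and 49.3 CPM in Sham mice and at 48.9, 44.0, 42.5 and 41.9 CPM in Vehicle mice (log2 fold change -0.26 ± 0.07, adjusted p = 0.0152). Zfp706, which encodes a protein of 76 residues, stood at 170, 176, 167 and 170 CPM in Sham mice and at 136, 140, 145 and 155 CPM in Vehicle mice (log2 fold change -0.25 ± 0.07, adjusted p = 0.0121). Neither call held without TMM, where the adjusted p was 0.0689 for Zfp318 and 0.0562 for Zfp706, and that of Zfp318 was also lost without the filter on low counts (0.0503). The other 9 lay between -0.22 and 0.39 on the log2 scale, among them the spindle factor Zfp207 (0.05, adjusted p = 0.683), the ribosome collision sensor Zfp598 (0.06, 0.655), Zfp622 (0.07, 0.483) and Zfp593 (0.28, 0.053), both known from ribosome assembly, Zfp326, a splicing and elongation factor (-0.05, 0.748), the double-stranded RNA binder Zfp346 (-0.22, 0.115), Zfp330 (0.23, 0.0858), Zfp277 (-0.18, 0.285) and Zfp473 (0.39, 0.512).

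The partners through which KRAB proteins act were described beside them. Of 33 genes of the TRIM28 corepressor machinery, 9 rose and 8 fell in Vehicle mice, with a median log2 fold change of 0.01, beside 22.7% and 17.3% of all genes. The smallest p values were those of Uhrf1, a reader of hemimethylated DNA in dividing cells (log2 fold change 3.35 ± 0.37, adjusted p = 0.00012), Atrx, a remodeler that places histone H3.3 in heterochromatin (-0.45 ± 0.09, 0.00237), and Hdac1 (0.93 ± 0.20, 0.00349). Markers of dividing cells summed to 22.9 to 157 CPM in Vehicle mice and 7.03 to 9.11 CPM in Sham mice, and their part in the change of Uhrf1 was not tested. Of the 33, with Vehicle mice 3 and 4 only, 3 (9.09%) rose and 11 (33.3%) fell, beside 16.1% and 14.4% of all genes, so that more fell than rose, and Uhrf1 (3.09, adjusted p = 6.8e-06), Atrx (-0.39, 0.00267) and Hdac1 (0.50, 0.00261) still passed. Between LJP and Vehicle none of the 33 passed, and the smallest p values belonged to Mta2 (-0.41 ± 0.13, adjusted p = 0.0775), Hdac1 (-0.57 ± 0.20, 0.0931) and the DNA methyltransferase Dnmt3a (0.23 ± 0.09, 0.122). Without Vehicle mice 1 and 2 these were -0.17, -0.15 and 0.11, with adjusted p of 0.334 to 0.565, whereas Mta2 and Hdac1 passed with DESeq2 and without Vehicle mouse 3 or Vehicle mouse 4 (0.0239 to 0.049), and Dnmt3a without Vehicle mouse 3 (0.0495). Between LJP and Sham, Uhrf1 rose (2.66 ± 0.37, 0.00174) and no other of the 33 passed, beside 3.85% of all genes higher and 0.9% lower. Atrx (-0.27 ± 0.09, 0.112) and Trim33 (-0.25 ± 0.09, 0.158) were next, and both passed in the fit without Vehicle mice 1 and 2 (0.00793 and 0.017). In that fit 2 of the 33 rose and 7 fell, beside 12.6% and 12.3% of all genes.

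LJP mice were then compared with Vehicle mice, which addresses what LJP changes after I/R. The Vehicle mice serve in both comparisons, so values of a member in the 2 comparisons are not independent. No member passed an adjusted p of 0.05 in edgeR's test in either direction, while 0% of all genes rose and 0.0228% (4 genes) fell. Of these 4 genes, 3 were airway and lung markers, whose sum was 0.358 to 0.669 CPM in LJP mice and 8.35 to 13.2 CPM in the others. The source of that difference was not tested, and it goes with the LJP group, so that it cannot be told apart from LJP. At an unadjusted p below 0.05, 41 members stood higher in LJP mice and 12 lower, beside 12.3% and 17.4% of all genes. All 4 LJP values lay above all 4 Vehicle values in 22 members and below them in 5, beside 5.77% and 5.91% of all genes. At the study's thresholds 1 member was higher and 1 lower, beside 1.07% and 5.89% of all genes. With DESeq2, 18 members were called higher and 2 lower, beside 4.18% and 9.25% of all genes. The count depended on single Vehicle mice: without Vehicle mouse 3, 30 members were called higher and 6 lower, beside 8.58% and 13.1% of all genes, and without Vehicle mouse 4, 14 and 2, beside 3.41% and 8.43%. With Vehicle mice 3 and 4 only, no member was called and the members' median log2 fold change was 0.06, against 0.11 with all 4.

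Between LJP and Vehicle mice, KRAB members had a median of 0.28 on the log2 scale, with 64 of 77 above 0, 23 (29.9%) higher and 2 (2.597%) lower at an unadjusted p below 0.05, beside 12.3% and 17.4% of all genes, and none past the adjusted threshold. For members with no KRAB box the median was 0.01, with 16 (15.5%) higher and 10 (9.71%) lower at that p. With Vehicle mice 3 and 4 only, the KRAB median was 0.10 and that of the others 0.01. The median of all genes was 0.00 in the comparison.

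The 5 members with the smallest p on the higher side in LJP mice were Zfp287, Zfp583, Zfp644, Zfp770 and Zfp235, all with an adjusted p of 0.0678. For Zfp287, whose levels are given above, the log2 fold change was 0.49 ± 0.09, and the LJP mice lay within the Sham range. Zfp583 stood at 5.07, 4.52, 4.60 and 3.73 CPM in the Sham mice, 2.63, 2.71, 3.34 and 2.86 CPM in the Vehicle mice and 4.54, 5.73, 4.73 and 6.35 CPM in the LJP mice. The Vehicle mice were below all others, and the log2 fold change was 0.89 ± 0.17 between LJP and Vehicle. Zfp235 stood at 12.7, 8.25, 11.4 and 13.6 CPM in Vehicle mice and at 16.3, 16.6, 16.6 and 17.3 CPM in LJP mice (log2 fold change 0.54 ± 0.14). Zfp770 stood at 10.5, 9.97, 13.5 and 13.5 CPM in Vehicle mice and at 17.2, 14.9, 16.9 and 18.8 CPM in LJP mice (log2 fold change 0.51 ± 0.13), and Zfp644 differed by 0.40 ± 0.09. None of the 5 overlapped between LJP and Vehicle mice, and the exact permutation test gave p = 0.0286 for each, the smallest it can give. That p only restates the lack of overlap, and the 5 were chosen by their p in these same mice, so it adds no support. With Vehicle mice 3 and 4 only, their log2 fold changes were 0.24 to 0.78, with adjusted p of 0.153 to 0.285. All 5 passed with DESeq2 and without Vehicle mouse 3 or Vehicle mouse 4, so that their calls depend on the method and on single mice.

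On the lower side in LJP mice, the 5 members with the smallest p were Zfp217, Zfp703, Zfp423, Zfp219 and Zfp787, none of which passed. The log2 fold change of Zfp217 was -0.81 ± 0.22 (adjusted p = 0.0689) and that of Zfp703 -0.34 ± 0.10 (adjusted p = 0.0719). Zfp703 stood at 89.7, 88.0, 90.3 and 78.1 CPM in LJP mice, below every Vehicle mouse and above every Sham mouse. Zfp219 stood at 66.9, 65.9, 67.8 and 61.1 CPM in LJP mice and held the same place between the groups (log2 fold change against Vehicle -0.19 ± 0.07, adjusted p = 0.113). Zfp423 (-0.43 ± 0.15, adjusted p = 0.0982) and Zfp787 (-0.26 ± 0.10, adjusted p = 0.113) overlapped between LJP and Vehicle mice. In the lists, Zfp445 stood at 92.9, 103, 94.3 and 104 CPM in LJP mice, above every Vehicle mouse (log2 fold change 0.37 ± 0.10, adjusted p = 0.0699), and Zfp365 differed by 0.52 ± 0.17 (adjusted p = 0.09). Without Vehicle mice 1 and 2, the log2 fold changes were -0.40 for Zfp217, -0.17 for Zfp703, -0.17 for Zfp423, -0.11 for Zfp219, -0.12 for Zfp787, 0.19 for Zfp445 and 0.19 for Zfp365, with adjusted p of 0.229 to 0.621. Zfp217, Zfp703, Zfp445 and Zfp365 passed with DESeq2 and without Vehicle mouse 3 or Vehicle mouse 4. Zfp423 and Zfp787 passed only without Vehicle mouse 3, and Zfp219 passed in no alternative. The list medians were 0.07 for neural development, -0.15 for chromatin and -0.01 for RNA binding with all 4 Vehicle mice, and -0.01, -0.01 and 0.06 without Vehicle mice 1 and 2, so that the first and the last turned sign.

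LJP mice were last compared with Sham mice. No member rose and 1 of 189 fell, beside 3.85% and 0.9% of all genes, and the members' median log2 fold change was -0.03. Vehicle mice are not compared here but share the filter, the scaling and the estimate of the spread, and without Vehicle mice 1 and 2, 6 members rose and 15 fell, beside 12.6% and 12.3% of all genes, with a median of -0.04. At an unadjusted p below 0.05, 8 members were higher and 9 lower, beside 11.6% and 7.29% of all genes, and at the study's thresholds 2 and 1, beside 5.1% and 0.797%. The member that fell was Zfp292 (log2 fold change -0.31 ± 0.08, adjusted p = 0.0348), whose LJP values lay below all Sham values. Its call was lost without any of the LJP mice (adjusted p of 0.0644 to 0.102) or any of the Sham mice (0.0503 to 0.131). The 3 members with the smallest p on the higher side were Zfp219 (0.26 ± 0.07, adjusted p = 0.0648), Zfp217 (0.81 ± 0.23, 0.0696) and Zfp703 (0.33 ± 0.10, 0.0875), each without overlap between the groups. Without Vehicle mice 1 and 2 their adjusted p were 0.00403, 0.00299 and 0.00283, and that of Zfp292 was 0.00337. KRAB members had a median of -0.03 with none past the test, and their smallest adjusted p was 0.275, while 2 of them fell in the fit without Vehicle mice 1 and 2.

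The 142 other numbered Zfp genes that met the same count rule are given for comparison. In Vehicle against Sham, 37 (26.1%) fell and 6 (4.23%) rose, beside 17.3% and 22.7% of all genes, with a median log2 fold change of -0.27, and in LJP against Vehicle the median was 0.22. Their 106 KRAB genes had medians of -0.31 and 0.24, beside -0.33 and 0.28 for the 77 KRAB members. Their 31 genes with no KRAB box had medians of -0.18 and 0.15, beside -0.05 and 0.01 for the 103 members. With Vehicle mice 3 and 4 only, these medians were -0.19 and 0.11 for the 106 genes and -0.19 and 0.07 for the 31. Without Vehicle mice 1 and 2, 20 of the 142 (14.1%) fell and 1 rose, beside 14.4% and 16.1% of all genes, and the medians were -0.17 and 0.10. No difference between the 2 sets of names was tested.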

How the data were processed

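RNA of the ischemic hemisphere of 12 mice was sequenced by the study as poly(A)-selected libraries made with a NEBNext Ultra kit. The authors deposited raw counts per gene and mouse for 39756 genes, without normalization. The submitters' processing notes name featureCounts, DESeq2, mm10 and GRCm39; the aligner and the strand setting are not given in the sources used here, and the positions of all 189 members equal those of RefSeq in GRCm38.p6. Groups and replicate numbers came from the sample titles.

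Genes were filtered with filterByExpr in edgeR 4.0.16 (R 4.3.3), which left 17558, scaled by TMM and fitted with a quasi-likelihood model on all 12 mice with a coefficient per group. Adjustment followed Benjamini and Hochberg (Benjamini-Hochberg) over all genes tested, and a change was called when the adjusted p was below 0.05. Per-mouse log2 differences used CPM plus 0.5. Exact permutation tests over mice were two-sided and used log2 CPM. Finger units, linkers and KRAB boxes were found in the translated coding sequence of GENCODE M21 by pattern, with at least 12 of 17 KRAB positions matched for a KRAB gene, 8 to 10 for an intermediate match and 6 or fewer for none. Counts of 9 members are uncertain because over 10% of their 100-base stretches occur in other genes, and 54 members overlap a gene on the other strand. The finger rule, classes, runs and motifs were chosen with the data at hand.

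The members and the gene lists were chosen with earlier results of these data known. The genes named are, in Vehicle against Sham, the 10 in each direction with the smallest p among those that passed, in LJP against Vehicle the 5 in each direction with the smallest p, in LJP against Sham those that passed or else the 3 with the smallest p, the members of the lists, the 3 TRIM28 machinery genes with the smallest p in each comparison, and the 3 genes on each side of the count threshold. The members of the chromosome 13 run that are named with values were chosen after their values were seen.

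No library was a duplicate of another in its group: the chi-square divided by its degrees of freedom was 2.52 or more for each pair. The labels do not say whether the mice of a group came from separate litters or surgery days, and p-values measure the spread between these libraries. Alternatives were DESeq2 1.42.0, RLE scaling, library size only, no filter, a fit of 2 groups alone, a block for the replicate number, the study's thresholds (log2 fold change beyond 0.58 in size and unadjusted p under 0.01), an unadjusted p below 0.05, leaving out each mouse in turn and, added after seeing the data, leaving out Vehicle mice 1 and 2 for all 3 comparisons and for the single genes named. The test was checked on simulated counts. Plots were drawn with matplotlib 3.10.9.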

Additional observations from a re-analysis of the deposited data

Results flagged for a closer look

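Among the 50 members named for a comparison or a list, each of the 3 groups of 4 mice was searched for a mouse far from the others, which gave 150 groups. A mouse was marked when the gap to its nearest neighbour, divided by the range of the group, was over Dixon's 95% critical value for 4 samples. Chance marks about 1 in 20 groups, and 10 of the 150 were marked. In Vehicle mice, mouse 2 was highest for Zfp384 (52.1 CPM against 38.3 CPM for the next mouse, gap ratio 0.935) and for Zfp395 (25.1 against 17.1 CPM, 0.929), and mouse 1 was highest for Zfp622 (95.6 against 80.3 CPM, 0.861). In LJP mice, mouse 1 was lowest for Zfp318 (42.1 against 46.3 CPM, 0.859) and for Zfp687 (51.3 against 59.0 CPM, 0.853), mouse 2 was lowest for Zfp568 (3.73 against 4.45 CPM, 0.919), and mouse 3 was lowest for Zfp346 (28.8 against 31.3 CPM, 0.845). In Sham mice, mouse 1 was highest for Zfp605 (14.01 against 12.4 CPM, 0.861) and lowest for Zfp746 (35.1 against 38.6 CPM, 0.897), and mouse 3 was highest for Zfp536 (39.02 against 35.96 CPM, 0.895).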

How the results depend on the processing

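With library size only, the median of LJP against Sham moved from -0.03 to 0.02 while that of all genes moved to 0.06, and the median of members with no KRAB box turned from -0.05 to 0.03 in Vehicle against Sham and from 0.01 to -0.02 in LJP against Vehicle; of 78 results on single genes, 8 turned their sign in an alternative, and none of the 8 was called with all mice. In Vehicle against Sham, with Vehicle mice 3 and 4 only, the log2 fold change turned to -0.017 for Zfp521, 0.14 for Zfp536, -0.14 for Zfp516, -0.077 for Zfp207 and -0.10 for Zfp598, and with library size only to 0.027 for Zfp326. Leaving out each mouse in turn gave -0.34 to 0.0080 for Zfp536, -0.019 to 0.10 for Zfp516, -0.0095 to 0.12 for Zfp652, -0.041 to 0.099 for Zfp207, -0.0053 to 0.093 for Zfp622 and -0.016 to 0.125 for Zfp598. Likewise with Vehicle mice 3 and 4 only, Zfp455 and Zfp456 of the chromosome 13 run turned from below to above 0 in Vehicle against Sham, and Zfp455, Zfp456, Zfp748 and Zfp273 from above to below 0 in LJP against Vehicle. The members called in Vehicle against Sham (11 higher, 51 lower) were 23 and 30 with library size only, 6 and 30 with only the 2 groups compared, 5 and 26 with Vehicle mice 3 and 4 only, and 3 and 11 at the study's thresholds, while without the filter 33 were lower and at an unadjusted p below 0.05 21 were higher. Their median of -0.18 moved to -0.10 with library size only and to -0.10 with Vehicle mice 3 and 4 only. For LJP against Vehicle (0 and 0), DESeq2 gave 18 and 2, no filter gave 3 higher, the study's thresholds gave 1 and 1, and an unadjusted p below 0.05 gave 41 and 12, and the median of 0.11 was 0.0561 with Vehicle mice 3 and 4 only. For LJP against Sham (0 and 1), DESeq2 gave 4 and 3, library size only 1 and 0, only the 2 groups compared 6 and 14, no filter 0 lower, the study's thresholds 2 higher, leaving out Vehicle mice 1 and 2 6 and 15, and an unadjusted p below 0.05 gave 8 and 9. The shares of the 17558 genes higher and lower were, in Vehicle against Sham, 27.0% and 13.1% with library size only, 19.1% and 11.6% with only the 2 groups (of the genes tested there), 16.1% and 14.4% with Vehicle mice 3 and 4 only and 20.9% and 13.8% without the filter. In LJP against Vehicle they were 4.18% and 9.25% with DESeq2 and 0.273% and 2.88% without the filter. In LJP against Sham they were 6.27% and 2.398% with DESeq2, 4.45% and 0.598% with library size only, 12.1% and 11.8% with only the 2 groups, 4.12% and 0.547% without the filter and 12.6% and 12.3% with Vehicle mice 3 and 4 only.

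Leaving out each mouse in turn gave 6 to 20 higher and 27 to 58 lower in Vehicle against Sham, 0 to 30 higher and 0 to 6 lower in LJP against Vehicle, and 0 to 3 higher and 0 to 6 lower in LJP against Sham. In Vehicle against Sham the higher count moved by over 1.5 times without Sham mouse 1 (7), 2 (6), 3 (6) or 4 (7) or Vehicle mouse 2 (6) or 3 (20), and the lower count without Sham mouse 1 (27), 2 (32) or 3 (29) or Vehicle mouse 1 (33). In LJP against Sham, leaving out Vehicle mouse 2 gave 3 and 6. Over these fits, 18.3% to 25.3% of all genes were higher and 11.5% to 20.8% lower in Vehicle against Sham, 0% to 8.58% and 0.0171% to 13.1% in LJP against Vehicle, and 1.98% to 7.85% and 0.234% to 5.54% in LJP against Sham.

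Mice with the same replicate number did not deviate together, with 1 of 12 correlations over 0.1 (range -0.322 to 0.114), so the numbers were not taken as pairs. With the number as a block, 8 members were higher and 42 lower in Vehicle against Sham, beside 19.7% and 15.1% of all genes, where the calls of Zfp410, Zfp777, Zfp384 and Zfp568 were lost (adjusted p of 0.0525 to 0.0801), 0 and 0 in LJP against Vehicle, and 0 and 0 in LJP against Sham, beside 2.31% and 0.336%, where the call of Zfp292 was lost (0.0909). Members at few counts limit the precision: the run on chromosome 13 has a median of 1.76 CPM.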

Other observations

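Rows named Zfp200 to Zfp799 that are not protein-coding were outside the comparisons. Zfp783, a long non-coding RNA gene in the table, had counts of 95, 115, 87 and 80 in Sham mice. Vehicle mice had 162, 141, 105 and 111 counts of it, and LJP mice had 121, 142, 145 and 89. Zfp389 and Zfp572, transcribed pseudogenes, and Zfp419, a long non-coding RNA gene, had at most 6, 1 and 2 counts in any mouse.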
